A study of Mus musculus with 4 samples.

Results

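The genes described here are 8 genes of formative and primed pluripotency: Otx2, Fgf5, Pou3f1, Zic2, Zic5, Sall2, Sox4 and Sox11. They were followed in H3K27ac HiChIP of mouse embryonic stem cells, an assay that ligates DNA ends lying close together in fixed nuclei and then enriches, with an antibody, for chromatin carrying acetylated lysine 27 of histone H3. Members' contacts were all pairs of anchors (genomic intervals between which read pairs were counted) in which at least 1 anchor held an annotated transcription start site of the gene. All 8 genes had such an anchor. They used 8 of the 56562 anchors and 481 of the 1513030 pairs, and they are 8 of the 13996 protein-coding genes with an anchored start site.

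Cells of C57BL/6J (B6) and DBA/2J (D2) genotype were compared. Each strain had 2 embryonic stem cell lines with 1 library per line, so every strain value rests on 2 lines. The p-values set the strain difference against the spread between lines, estimated with information shared over all tested pairs, anchors or genes. All lines were grown in serum medium with LIF, the MEK inhibitor PD0325901 at 1 µM and the GSK3 inhibitor CHIR99021 at 3 µM, and no line was shifted to another medium. Fixation was in 1% formaldehyde for 10 min, chromatin was cut with DpnII, and reads were 75 bp long in every library. The library totals were between 2767882 and 2944258 counts, and D2 replicate 1 has 10cyc in its library name where the others have 8cyc, which the labels leave unexplained.

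Pluripotent cells pass from a naive state, which LIF and the 2 inhibitors hold in culture, through a formative state to a primed state in which they answer signals for the germ layers. Otx2 and Pou3f1 (also known as Oct6) encode transcription factors that take part in leaving the naive state, Fgf5 encodes a secreted growth factor used as a marker of the epiblast after implantation, and the zinc finger and Sox genes of the list are switched on around that passage or in the early neural lineage. H3K27ac marks active promoters and enhancers, and a HiChIP count rises both with contact and with the mark, which cannot be told apart in these data. Fewer cells of a type and less signal per cell cannot be told apart either. Of 12 stem cell markers, 10 had an anchored start site, with a median of 214.4 CPM (counts times 1000000 over the library total). Of 14 markers of fibroblasts and differentiated cells, 8 had one, with a median of 15.9 CPM. Scaled per kb, since anchors differ in width, the 2 medians were 6.75 and 4.16 CPM. Col1a1, Col1a2, Col3a1, Foxa2, Hand1 and Prrx1 had none, and the summed level of the other 8 was 166.4 to 167.8 CPM in B6 and 146.7 to 156.6 CPM in D2. Esrrb and Tfcp2l1 of the stem cell markers had none either, so a missing anchor alone does not tell the 2 lists apart.

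The start-site regions differ in base composition, and 5 of them are shown because the results below turn on these genes: Sox11 and Fgf5 lay at the low end of contact, Zic5 at the high end, and Sall2 has 2 anchored start sites. Each run reads 5′ to 3′ along the gene, ends just before the start of transcription, and has CpG dinucleotides in capitals. Sequences are RefSeq's on GRCm38.p6, from a table that held 6 of the 8 genes, and bases that GENCODE M21 places after a start site are left out.
Sox11, chr12:27342719-27342968, minus strand: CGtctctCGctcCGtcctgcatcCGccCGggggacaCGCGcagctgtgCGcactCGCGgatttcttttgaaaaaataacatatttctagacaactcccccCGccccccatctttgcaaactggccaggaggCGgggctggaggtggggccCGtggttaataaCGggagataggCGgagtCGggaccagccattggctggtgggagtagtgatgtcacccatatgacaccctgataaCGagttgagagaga
Fgf5, chr5:98253934-98254183, plus strand: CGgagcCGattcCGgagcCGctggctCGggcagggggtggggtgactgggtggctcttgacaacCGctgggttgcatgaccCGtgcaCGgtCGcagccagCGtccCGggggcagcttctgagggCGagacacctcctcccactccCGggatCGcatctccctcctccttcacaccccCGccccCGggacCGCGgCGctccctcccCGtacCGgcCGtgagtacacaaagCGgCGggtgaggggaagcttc
Zic5, chr14:122465678-122465908, minus strand: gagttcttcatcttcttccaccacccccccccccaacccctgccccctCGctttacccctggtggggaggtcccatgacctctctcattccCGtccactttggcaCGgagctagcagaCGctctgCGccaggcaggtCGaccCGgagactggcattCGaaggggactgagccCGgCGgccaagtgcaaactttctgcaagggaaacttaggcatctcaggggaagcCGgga
Sall2, downstream start, chr14:52316324-52316573, minus strand: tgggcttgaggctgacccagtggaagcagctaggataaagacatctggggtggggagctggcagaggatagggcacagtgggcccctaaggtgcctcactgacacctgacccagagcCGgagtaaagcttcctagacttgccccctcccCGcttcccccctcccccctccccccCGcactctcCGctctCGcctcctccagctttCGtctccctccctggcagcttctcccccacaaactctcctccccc
Sall2, upstream start, chr14:52328763-52328920, minus strand: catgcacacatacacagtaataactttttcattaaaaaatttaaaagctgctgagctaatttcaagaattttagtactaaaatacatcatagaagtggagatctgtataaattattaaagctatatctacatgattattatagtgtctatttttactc
The Fgf5 run holds 24 CpG, the Sox11 run 17, the Zic5 run 11, the downstream Sall2 run 6 and the upstream Sall2 run 0. The median of the 32851 windows of 250 bases in the table was 6. Of the 6 genes in the table, the 2 with the most CpG were the 2 with the lowest contact totals. Over the full 250 bases, 1 CCAAT and 2 GGGCGG motifs (either strand) were found at Sox11, 1 GGGCGG at Fgf5, and 1 CCAAT and 1 TATAAA at the upstream Sall2 start, against 33.8% of windows with CCAAT, 32.7% with GGGCGG and 12.4% with TATAAA. Sox4 had 4 CCAAT motifs. ATGCAAAT, held by 1.60% of windows, was at none of the members, and TAATCC, held by 6.25%, was at 1 of 4 Otx2 windows.

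Anchors began and ended at the site that DpnII cuts, GATC, which is in capitals in the edges of the 2 anchors whose contact counts differed most clearly between strains, read on the plus strand.
Sox11 anchor, lower edge, chr12:27335212-27335237: atgtggagattGATCacacgattttt
Sox11 anchor, upper edge, chr12:27345039-27345064: ctttcacaaaaGATCaggtagattga
Zic2 and Zic5 anchor, lower edge, chr14:122459702-122459727: gtgtttctttcGATCgctgctattgg
Zic2 and Zic5 anchor, upper edge, chr14:122486705-122486730: cttcttgcaaaGATCaaacatgcttt
The Zic anchor (chr14:122459713-122486716) is 27003 bp wide and holds the start sites of Zic2, of Zic5, which is transcribed in the other direction, and of the noncoding gene 2610035F20Rik. Zic2 and Zic5 therefore share all their counts and are given as 1 value. The Otx2 anchor (chr14:48647290-48676400) is 29110 bp wide and holds all 10 annotated Otx2 start sites with those of Otx2os1, Gm23469 and Gm49154. The anchor of Pou3f1 (chr4:124656023-124660992) also holds the start of the antisense gene Gm2164. Sall2 has 2 anchors (chr14:52312339-52318617 and chr14:52326246-52332909). Those of Fgf5 (chr5:98252931-98258104), Sox4 (chr13:28944460-28955153) and Sox11 (chr12:27335223-27345050) hold no start site of another gene.

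Summed over its pairs, each gene has a contact total. Zic2/Zic5 contacts were higher in D2 and Sox11 contacts lower in D2, while Otx2, Sall2, Pou3f1 and Sox4 contacts did not pass the test. Fgf5, which had the fewest counts of the list, lay lower in both D2 libraries and missed the threshold. With edgeR's quasi-likelihood test and Benjamini-Hochberg adjustment over 13826 genes, 3 of the 8 members passed an adjusted p of 0.05, where 13.3% of all genes did. Of these, Zic2 and Zic5 were higher on the same counts (3.49% of all genes were higher) and Sox11 was lower (9.76% were lower). The strains did not overlap in CPM for 6 of the 8 members, against 56.4% of all genes.

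**Figure D1:**
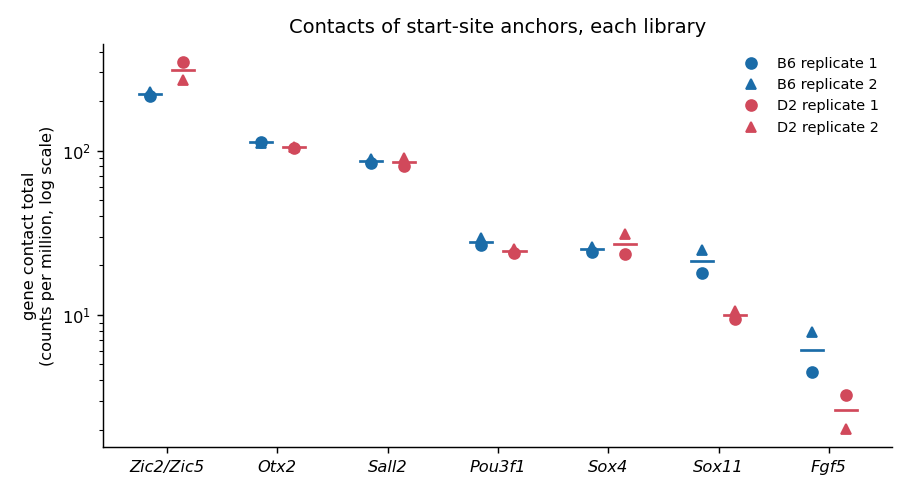
Contact total of each gene in CPM (log axis), 1 point per library and a bar at each strain's mean. Both D2 libraries lie above both B6 libraries for Zic2/Zic5 and below them for Sox11 and Fgf5; for Sall2 and Sox4 the strains overlap.

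The Zic anchor had 627 and 640 counts in the B6 libraries and 952 and 793 in D2 replicates 1 and 2, or 215.6, 228.5, 343.9 and 269.3 CPM. Both D2 values were above both B6 values, and D2 replicate 1 was the highest. The strain means were 222.0 ± 9.13 CPM in B6 and 306.6 ± 52.8 in D2 (SD, n = 2 each), a log2 fold change of 0.39 with a standard error of 0.12, given after ± for every fold change below (edgeR adjusted p = 0.0279). The call was lost without B6 replicate 1 (edgeR adjusted p = 0.367), without B6 replicate 2 (0.186), without D2 replicate 1 (0.224, log2 fold change 0.23) and by DESeq2 (0.103), and over all alternatives the adjusted p ran from 1.37e-05 to 0.367.

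Sox11, a transcription factor of the SoxC group, had 52 and 70 counts in B6 and 26 and 31 in D2, or 17.9, 25.0, 9.39 and 10.5 CPM. Both D2 libraries were below both B6 libraries. The means were 21.4 ± 5.03 CPM in B6 and 9.96 ± 0.803 in D2 (SD, n = 2 each), a log2 fold change of -1.17 ± 0.27 (edgeR adjusted p = 0.00199). The call was lost without B6 replicate 2 (edgeR adjusted p = 0.112) and by DESeq2 (0.0557), with adjusted p from 0.000818 to 0.112 over the alternatives.

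Fgf5 had 13 and 22 counts in B6 and 9 and 6 in D2, or 4.47, 7.85, 3.25 and 2.04 CPM. The D2 values were below the B6 values. The log2 fold change was -1.28 ± 0.46 (edgeR adjusted p = 0.0561), near that of Sox11 in size on fewer counts, and its adjusted p ran from 0.0411 to 0.598 over the alternatives. It passed with start sites of protein-coding transcripts only (edgeR adjusted p = 0.0444). Otx2 had 327 and 312 counts in B6 and 287 and 311 in D2, or 111.9 ± 0.736 and 104.7 ± 1.37 CPM (SD, n = 2 each). The Otx2 strains did not overlap, but the difference, a log2 fold change of -0.17 ± 0.13, was not called (edgeR adjusted p = 0.469).

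Pou3f1 had 77 and 82 counts in B6 and 66 and 74 in D2, or 27.9 ± 1.98 and 24.5 ± 0.911 CPM. Its log2 fold change was -0.25 ± 0.21 (edgeR adjusted p = 0.492), and -0.0142 when scaled by totals within each chromosome. Sall2 had 244 and 249 counts in B6 and 224 and 265 in D2, or 86.4 ± 3.54 and 85.5 ± 6.42 CPM, with a log2 fold change of -0.08 ± 0.14 (edgeR adjusted p = 0.776). Sox4, the other SoxC gene of the list, had 70 and 73 counts in B6 and 65 and 91 in D2, or 25.1 ± 1.41 and 27.2 ± 5.25 CPM, with a log2 fold change of 0.05 ± 0.21 (edgeR adjusted p = 0.915). For Sall2 and Sox4 the D2 values lay on both sides of the B6 values. Their sign turned when 1 library was left out, and for Sox4 also when start sites were widened by 5 kb.

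The same test on single anchors called 1 of the 8 member anchors, that of Sox11, where 9.77% of 51820 tested anchors were called. Its log2 fold change was -1.06 ± 0.25 (edgeR adjusted p = 0.0029). The Zic anchor stood at 0.51 ± 0.18 and missed the threshold (edgeR adjusted p = 0.0547). Its counts are the same in both fits, which differ in the features that set the spread and the adjustment and in the TMM scaling factors (0.948 for D2 replicate 1 among anchors and 1.04 among genes). With library totals alone the Zic anchor was called too (0.47; edgeR adjusted p = 0.00769), which makes 1 anchor higher and 1 lower. The Sox11 anchor was not called without B6 replicate 2 (edgeR adjusted p = 0.128) or by DESeq2 (0.169). The 2 Sall2 anchors stood at 0.08 ± 0.16 and -0.01 ± 0.18.

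**Figure D2:**
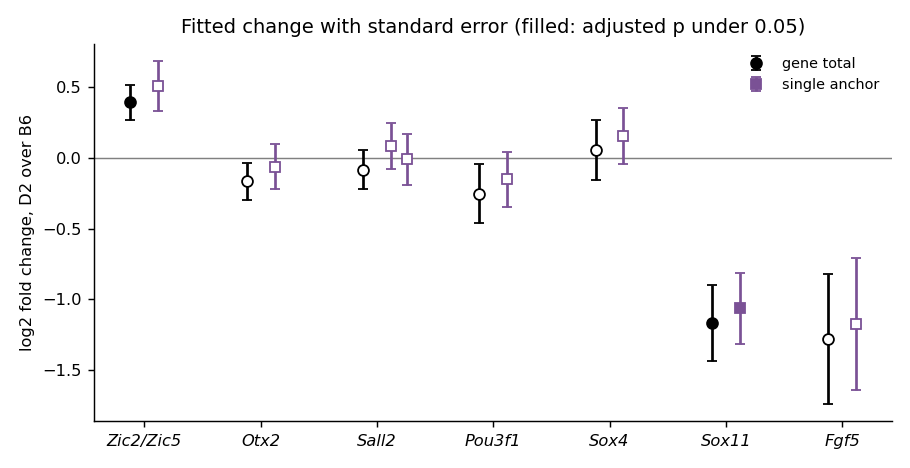
Log2 fold change, D2 over B6, with its standard error for each gene total (circles) and for each member anchor (squares; Sall2 has 2), filled where the adjusted p was under 0.05. Sox11 is filled in both fits at -1.17 and -1.06, Zic2/Zic5 only as a gene total at 0.39, and the error bar of Fgf5 is the longest.

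Anchors differ in width, so levels were compared between genes per kb of anchor. Zic2/Zic5 was highest at 9.79 ± 2.14 CPM per kb (SD over the 4 libraries), then came Sall2 at 6.64 ± 0.33, Pou3f1 at 5.27 ± 0.468, Otx2 at 3.72 ± 0.147, Sox4 at 2.44 ± 0.315, Sox11 at 1.60 ± 0.738 and Fgf5 at 0.851 ± 0.484. The 4 libraries of neighbours in this order did not overlap from Zic2/Zic5 down to Sox4, whereas Sox11 overlapped both Sox4 and Fgf5. Among all genes with an anchored start site, Zic2/Zic5 stood at the 77.8 percentile of CPM per kb, Sall2 at 55.7, Sox11 at 8.51 and Fgf5 at 3.41. Otx2 stood at the 70.1 percentile of CPM and at 27.5 per kb, since its anchor is wide.

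The counts of Zic2/Zic5 lay almost entirely on 1 side. Of 3012 counts, 93.6% joined the anchor to partners at lower coordinates (94.1, 93.3, 94.6 and 92.2% in the 4 libraries). There were 73 partners on that side and 19 on the other, of 88 and 24 anchors present within 2 Mb. Among 8956 start-site anchors with at least 50 counts, 75 (0.837%) were as one-sided, and the larger side held a median of 61.5%. The strongest partner was chr14:122398781-122444899, 51.4 kb away between midpoints, over the start of the Gm5089 antisense transcript and the 3′ end of Clybl, a mitochondrial enzyme gene. It had 180 and 162 counts in B6 and 294 and 225 in D2, 28.6% of the Zic counts and 34.7 times the mean of the pairs that the table lists within 10% of the same distance. Both D2 values were above both B6 values, and the pair alone, at a log2 fold change of 0.54 ± 0.22, was not called (edgeR adjusted p = 0.261). The ratios to the mean at a distance, here and below, matched pairs by distance only and were not scaled by anchor width. Widths differ, with 27003 bp for the Zic anchor and 5173 bp for that of Fgf5.

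Partners overlapping Clybl (chr14:122181704-122402234) made 11 pairs and held 71.1% of all Zic counts, with 424 and 465 counts in B6 and 703 and 549 in D2. The share was 67.6, 72.7, 73.8 and 69.2% in the 4 libraries. The 11 pairs include the strongest partner, which overlaps only the 3′ end of Clybl and lies mostly beyond it. That pair held 861 of the 2141 counts. The pair with an anchor over a Clybl start site (chr14:122252500-122302456, 195.7 kb away) had 80, 121, 156 and 98 counts, 51.1 times the mean at its distance. An intron of Clybl (chr14:122327613-122353490, 132.7 kb away) had 62, 75, 104 and 74. In both of these pairs the strains overlapped in CPM, and neither was called. A further anchor over a Clybl start site, 291.5 kb away, had 7, 5, 12 and 15 counts, with both D2 values above both B6 values, a deposited q-value under 0.01 in all 4 libraries and no call (log2 fold change 1.08 ± 0.52; edgeR adjusted p = 0.369). On the other side, the pair with the start of Pcca, 61.3 kb away, had 7, 8, 9 and 8 counts. Of the 18 tested Zic pairs, 15 had a log2 fold change above 0, with a median of 0.36, and none was called. The smallest adjusted p was that of chr14:122221943-122231431, 246.5 kb away, with 6 and 9 counts in B6 and 20 and 18 in D2 (log2 fold change 1.26 ± 0.45; edgeR adjusted p = 0.153).

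**Figure D3:**
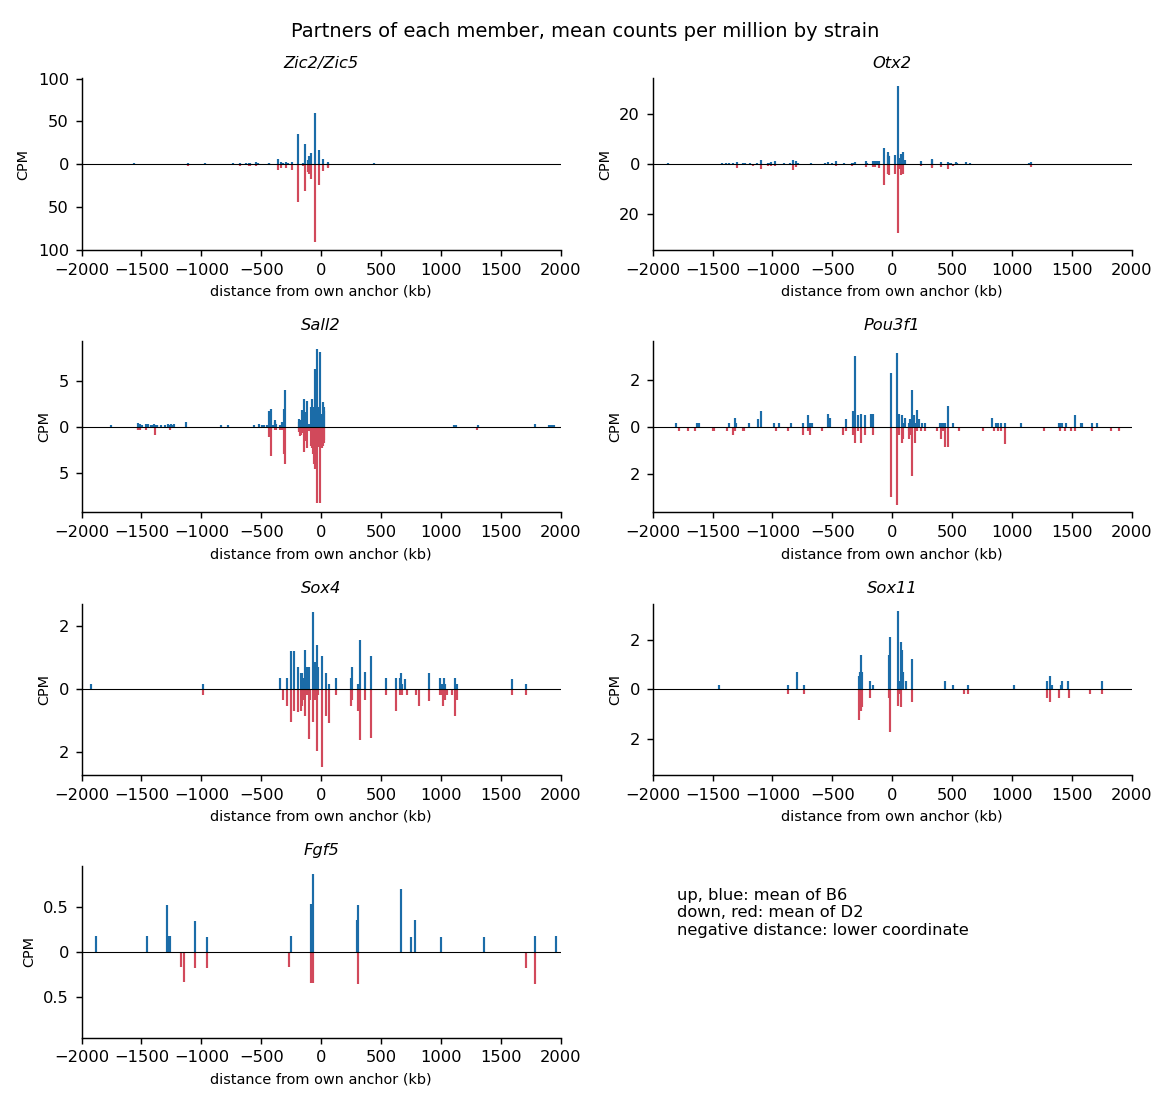
Mean CPM of every pair against the distance of the partner from the member's own anchor, with B6 upwards in blue and D2 downwards in red; negative distances are lower coordinates and each panel has its own scale. Zic2/Zic5 partners lie on the left with the tallest bar at 51.4 kb, Sall2 has 82.4% of its counts on the left, and Otx2 has 1 tall partner at 47.3 kb on the right.

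Otx2 contacts were led by 1 partner, as those of Zic2/Zic5 were, but lay on both sides. Chr14:48693127-48725228, 47.3 kb upstream of Otx2 and within Otx2os1, the long noncoding RNA transcribed away from it, had 92 and 86 counts in B6 and 65 and 94 in D2. That was 27.2% of the Otx2 counts and 12.8 times the mean at its distance, and the strains overlapped (log2 fold change -0.24 ± 0.24; edgeR adjusted p = 0.787). The next pairs, at 68.8 kb (12, 25, 25 and 22 counts) and 90.2 kb (16, 12, 17 and 5 counts), also overlapped. Otx2 made distant contacts too: the anchor over the start of Atg14, an autophagy gene, lay 1095.7 kb away and had 7, 3, 6 and 5 counts, 9.08 times the mean at that distance. The deposited q-value was under 0.01 in all 4 libraries for this pair and for the strongest one. Only 10.5% of Otx2 counts joined it to a start site of a protein-coding gene.

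Sall2, a zinc finger gene of the spalt family, showed the opposite makeup, since 81.9% of its counts went to anchors over start sites of protein-coding genes, although such partners were 50% of its pairs. The anchor over Rab2b and Tox4, 35.2 kb away, had 20, 28, 27 and 20 counts with the downstream Sall2 anchor, and that of Mettl3, which encodes the catalytic subunit of the RNA N6-adenosine methyltransferase, had 22, 24, 22 and 25 at 11.05 kb. The 2 Sall2 anchors were themselves a pair, 14.1 kb apart between midpoints, with 12, 16, 19 and 18 counts. That was 1.54 times the mean at that distance, with a deposited q-value under 0.01 in 0 of the 4 libraries. These anchors hold the CpG-poor and the CpG-richer start shown above. A partner 299.1 kb away over Tmem253 and Zfp219 had 13, 10, 11 and 12 counts, 7.38 times the mean at its distance. None of these was called, and of the 20 tested Sall2 pairs 12 were below and 8 above 0 (median log2 fold change -0.07).

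Pou3f1 had no dominant partner. Its strongest pair, with the start sites of Fhl3 and Utp11 at 42.9 kb, had 10, 8, 9 and 10 counts, 1.29 times the mean at that distance, and overlapped between strains. The third pair, with an intergenic anchor at chr4:124336831-124362171, 309.0 kb away, had 5 and 12 counts in B6 and 0 and 4 in D2 (edgeR adjusted p = 0.13). That partner anchor was itself lower in D2 over all its contacts, with 284 and 285 counts in B6 and 95 and 116 in D2 (log2 fold change -1.40 ± 0.16; edgeR adjusted p = 2.69e-08). Pou3f1 counts with its 5 partner anchors that were lower in D2 numbered 12 and 15 in B6 against 2 and 7 in D2. With its other 82 partners it had 65 and 67 in B6 against 64 and 67 in D2. These partners were sorted by their change, so the split is a description.

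Sox4 contacts reached into the introns of Cdkal1, a neighbouring tRNA-modifying enzyme gene. Partners at 328.7 kb (6, 3, 6 and 3 counts) and 418.1 kb (4, 2, 2 and 7 counts) were the only Sox4 pairs whose deposited q-value was under 0.01 in all 4 libraries, at 3.14 and 3.21 times the mean at their distance. Its strongest pair by count, with 2610307P16Rik at 65.5 kb, had 8, 6, 2 and 4 counts (log2 fold change -1.26 ± 0.71; edgeR adjusted p = 0.478), and the next, at 9.13 kb, had 3, 3, 9 and 5. The D2 libraries lay below B6 in the first and above them in the second, and neither was called.

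Sox11 pairs were few and low. Its strongest, with an intergenic anchor 19.3 kb away, had 5, 7, 5 and 5 counts, 0.496 times the mean of listed pairs at that distance. An equal total came from chr12:27387297-27394541, 50.8 kb away, with 7 and 11 counts in B6 and 1 and 3 in D2, which had the smallest adjusted p of all member pairs (log2 fold change -2.17 ± 0.74; edgeR adjusted p = 0.104). The third, at 70.5 kb, had 5, 6, 2 and 2 counts. Sox11 was lower in D2 with both kinds of partner, a split made by the partners' own change. With the 12 partners whose own anchor was lower in D2 it had 29 and 43 counts in B6 and 15 and 14 in D2, and with the other 23 it had 23 and 27 in B6 and 11 and 17 in D2. Fgf5 had no pair with more than 7 counts. Its first, with A730035I17Rik at 69.5 kb, had 3, 2, 1 and 1 counts, and the start of Prdm8, the neighbouring histone methyltransferase family gene 87.3 kb away, had 0, 3, 1 and 1, 0.308 times the mean at its distance.

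Of the 481 member pairs, 58 had the 20 counts needed for the test and 0 were called by edgeR, where 1.43% of 108034 tested pairs were called. At an unadjusted edgeR p under 0.05 there were 7 of 58, against 11.7% of all. DESeq2 called 0 as well. It gave no adjusted p for several of these pairs, among them the Sox11 pair with the smallest adjusted p by edgeR. Such pairs could not be called by DESeq2. The strains did not overlap in 22 of the 58, against 41.7% of all. Sall2 had 20 tested pairs, Zic2/Zic5 18, Otx2 12, Pou3f1 4, Sox4 and Sox11 2 each and Fgf5 0, so differences in single pairs of the last were not detectable at this depth. Without D2 replicate 2, 2 pairs were called: the strongest Zic pair (log2 fold change 0.75, edgeR adjusted p = 0.00754; 0.29 and 0.742 without D2 replicate 1) and the Pou3f1 pair at 309.0 kb, for which the remaining D2 library had 0 counts. Without a count minimum the strongest Zic pair was called (0.62, edgeR adjusted p = 9.68e-05).

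The distance over which contacts were made ranged widely among the genes. The median distance of a count was 59.3 kb for Sall2, 68.8 kb for Otx2, 99.9 kb for Zic2/Zic5, 158.0 kb for Sox11, 229.8 kb for Sox4, 262.0 kb for Pou3f1 and 663.1 kb for Fgf5. Over all members it was 96.6 ± 4.61 kb in B6 and 86.6 ± 5.00 kb in D2 (SD, n = 2 each). Both D2 values, 83.1 and 90.2 kb, were below the B6 values of 99.9 and 93.4 kb, as were those of the whole table (104.9 and 110.2 kb against 120.4 and 119.5 kb). No p is given, since 2 libraries against 2 allow none under 0.33 in an exact permutation test. Among pairs with at least 20 counts the difference was 0.0 kb. The pooled medians are weighted by counts, and Zic2/Zic5 supplied a larger part of the counts in D2. It held 627 of 1410 and 640 of 1448 member counts in B6, and 952 of 1629 and 793 of 1571 in D2. How far this moved the pooled medians was not tested. Sox11 went the other way from the pooled medians, with 118.0 and 80.3 kb in B6 and 251.0 kb in both D2 libraries. The latter rest on 26 and 31 counts. The Sox4 mean was also higher in D2 (222.9 kb against 210.5 kb in B6), with overlapping libraries.

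**Figure D4:**
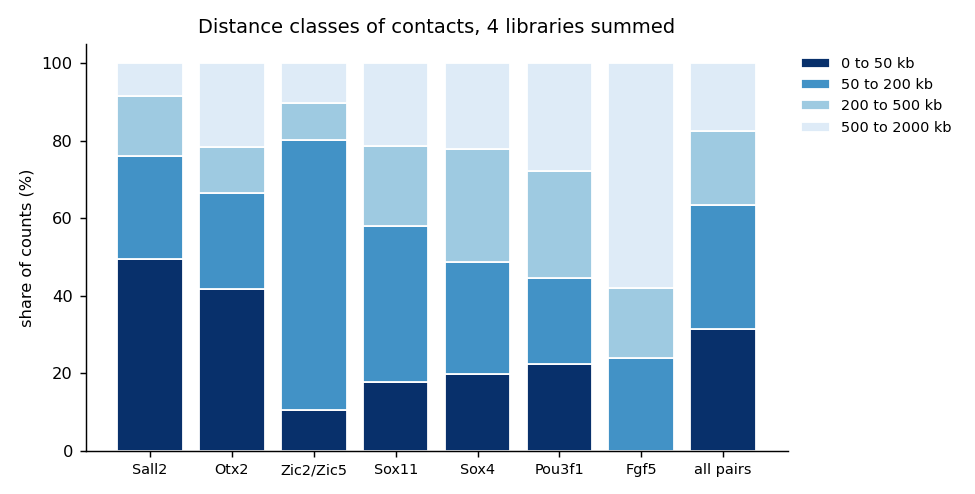
Share of each gene's counts in 4 classes of distance between anchor midpoints, with the 4 libraries summed and all pairs of the table at the right. Zic2/Zic5 has 69.6% of its counts at 50 to 200 kb against 31.9% in the table, Sall2 has 49.6% under 50 kb, and Fgf5 has 58.0% beyond 500 kb.

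Anchors around the members were set beside the members' own. Within 500 kb of Sox11, all 14 other tested anchors had a log2 fold change below 0, with a median of -1.15, and 7 were called lower, where 7.1% of all tested anchors were lower. The 3 with the largest fall lay at 50.8, 80.3 and 162.5 kb on the higher side, at -2.20, -2.15 and -2.41. Pairs of these neighbours that do not use the Sox11 anchor had 219 and 211 counts in B6 and 63 and 88 in D2, or 75.3 ± 0.0236 and 26.3 ± 5.04 CPM. The lower count was therefore not limited to pairs with Sox11.

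Near Otx2, 36 of 37 tested anchors lay below 0 with a median of -0.43, while Otx2 itself stood at -0.06 in the same fit. Of the 37, 5 were called lower, where 7.1% of all tested anchors were. No share over all tested anchors is given here for values below or above 0. Near Pou3f1 4 of 36 were called lower, all between 287.4 and 414.3 kb on the lower side. Near Sall2 5 of 23 were called lower, all between 391.9 and 483.0 kb on the lower side. One of these, chr14:51836308-51842965, had 70 and 74 counts in B6 and 0 and 1 in D2. Called or not, 23 of the 36 near Pou3f1 (median -0.10) and 20 of the 23 near Sall2 (median -0.16) lay below 0. Near Zic2/Zic5, 21 of 27 tested anchors lay above 0 with a median of 0.21, and near Sox4 16 of 27 with a median of 0.05, with 0 called in both places. Pairs of the Zic2/Zic5 neighbours without the Zic anchor had 1257.8 and 1275.3 CPM in B6 and 1351.2 and 1552.2 in D2 replicates 1 and 2. Those of the Otx2 neighbours without the Otx2 anchor had 575.4 ± 11.4 CPM in B6 and 399.8 ± 40.7 in D2 (SD, n = 2 each). Counted in the same way, pairs of the Sall2 neighbours had 560.5 ± 1.43 CPM in B6 and 439.0 ± 27.1 in D2. Those of the Pou3f1 neighbours had 1150.7 ± 35.3 and 999.5 ± 4.88, and those of the Sox4 neighbours 164.6 ± 20.2 and 172.5 ± 3.36. Near Fgf5, 3 of 4 tested anchors lay below 0 with a median of -0.50 and 0 were called, and pairs of the neighbours without the Fgf5 anchor had 38 and 46 counts in B6 and 32 and 18 in D2. The reference genome comes from B6, and how D2 sequence differences bear on the counts was not tested.

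**Figure D5:**
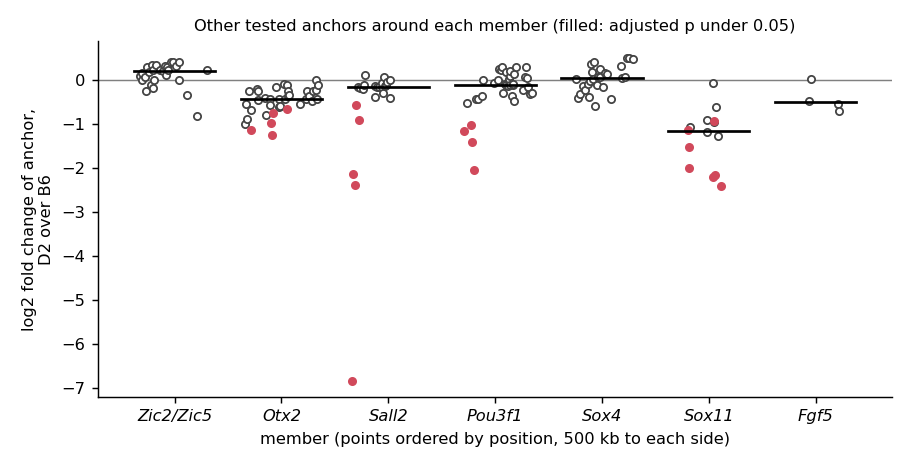
Log2 fold change, D2 over B6, of every other tested anchor within 500 kb of a member, ordered by position, with filled points for an adjusted p under 0.05 and a bar at the median. All 14 points at Sox11 are below 0 with 7 filled, and the called anchors near Sall2 and Pou3f1 sit together on the left; the point lowest in the plot is the anchor with 0 and 1 counts in D2, whose fitted value has no interpretable size.

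Other genes of the same passage were counted beside the members. Of 30 further formative and primed genes, 25 had an anchored start site and were tested. Their median log2 fold change was 0.09, against -0.12 for the members and 0.01 for all genes. At the adjusted threshold 1 was higher in D2 and 0 were lower, where 3.49% of all genes were higher and 9.76% lower. The one was Foxd3, a forkhead repressor active in the formative state, with 499 and 486 counts in B6 and 726 and 614 in D2 (log2 fold change 0.38 ± 0.12; edgeR adjusted p = 0.0372). Cer1, Etv5, Fgf8, Foxa2 and Sall1 had no anchor. Of 20 naive genes, Dppa4, Esrrb, Fbxo15, Klf2, Klf5 and Tfcp2l1 had no anchor. The other 14 were tested, with a median of 0.11, 2 higher and 0 lower, beside the same shares of all genes. Nanog (1443 and 1452 counts in B6, 2714 and 1732 in D2; log2 fold change 0.56 ± 0.14; edgeR adjusted p = 0.00637) and Sox2 (503 and 596 in B6, 918 and 713 in D2; 0.50 ± 0.13; adjusted p = 0.00817) were the 2. In Nanog, Sox2, Foxd3 and Zic2/Zic5, D2 replicate 1 was the highest of the 4 libraries.

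The gene outside the list whose 4 values lay nearest to those of each member, by Euclidean distance of log2(CPM + 0.5) over 13988 genes, was Tex264 for Zic2/Zic5 (221.8, 231.0, 334.2 and 259.1 CPM), Slc35e3 for Otx2, Phospho1 for Sall2, 6720489N17Rik for Pou3f1, Ltbp3 for Sox4, Gm13271 for Sox11 (18.2, 20.7, 9.03 and 9.85 CPM) and Glrb for Fgf5. The distance was 0.0604 for Otx2 and 0.389 for Fgf5, whose lower counts have no neighbour as close.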

How the data were processed

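H3K27ac HiChIP was deposited for 4 libraries, 2 of B6 and 2 of D2. The authors deposited raw read-pair counts per pair of anchors in a series table, with 4 count columns, and each library's counts again in a file of its own; every nonzero count was equal. The single-library files, which have no header, also hold a value from 0 to 1 that was taken as the q-value of the authors' loop caller. The deposited table gives the distance between anchor midpoints in bp. HiC-Pro 2.11.4, DESeq2 and mm10 are named in the submitters' processing notes, without roles; loop caller, filters and aligner settings are not given in the sources used here. The table covers the 19 autosomes and distances up to 2 Mb.

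Start sites were those of GENCODE M21 on GRCm38. CPM are counts over the whole-table library total. Pairs, anchors (sum over their pairs) and genes (each pair once) with at least 20 counts over the libraries were tested, D2 against B6, with edgeR 4.0.16 (R 4.3.3; quasi-likelihood test, TMM, strain only, Benjamini-Hochberg adjustment over all features), checked first on simulated data. An adjusted p under 0.05 counts as called. DESeq2 1.42.0 was an alternative. Standard errors were derived from the test, as the size of the unshrunken log2 coefficient over the square root of its F statistic. Members, lists and tests were chosen with earlier results of these data known, and some naive genes had been seen. Named were all members, their strongest pairs, the pair with the most counts to another gene's start site, the pair with the smallest adjusted p, genes sharing an anchor, the nearest profile, and called genes of the 2 lists; other pairs and neighbouring anchors were chosen after their values were seen. The replicate numbers only number the lines. Alternatives covered the scaling, tool, count minimum, each library left out, the start-site rule and the replicate block.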

Additional observations from a re-analysis of the deposited data

How the results depend on the processing

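Some calls were lost when 1 library was left out. These were the Sox11 calls without B6 replicate 2, and the Zic2/Zic5 total without B6 replicate 1, B6 replicate 2 or D2 replicate 1. The log2 fold change of the Zic2/Zic5 total was then 0.34, 0.44 and 0.23, against 0.39 with all libraries. Each such fit leaves 1 library in a strain, so a lost call does not show that the call rests on the library left out. Members called among gene totals numbered 3, and 0 by DESeq2; leaving out 1 library gave 0 to 3. The 1 called anchor became 2 with library totals without TMM factors, 2 with totals within each chromosome and 0 by DESeq2, and 0 to 2 with 1 library left out. Called pairs numbered 1 without a count minimum and 0 to 2 with 1 library left out. The numbers shared between strains do not pair the libraries (correlation of deviations 0.032 over 13826 genes); with the replicate block 4 gene totals were called, Fgf5 among them (-1.28; edgeR adjusted p = 0.0411), and 2 anchors. The distance difference of -10.0 kb became -4.19 kb with pairs of at least 2 counts in a library and 0.0 kb with pairs of at least 20 counts. Members had 449 partners, 50 with at least 20 counts, 151 with a q-value under 0.01 in 1 library or more and 29 in all 4. Signs turned, none of them called, for Sall2 (0.0089 without D2 replicate 1), Sox4 (-0.18 to 0.25 with 1 library left out; -0.074 with start sites widened by 5 kb), the strongest Pou3f1 pair (-0.12 to 0.15), the strongest Sall2 pair (-0.37 to 0.18) and the upstream Sall2 anchor (-0.15 to 0.15; 0.0009 by DESeq2). DESeq2 gave no adjusted p for the gene total of Fgf5 and for several member pairs. Counts, not replicates alone, limit Fgf5, Sox4 and Sox11 pairs.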
